A study of Mus musculus with 24 samples.

Results

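The expression of 8 genes of the hormone-sensing branch of the mouse mammary epithelium was followed across 3 sorted populations and 2 genotypes. They are the receptor genes Esr1, Pgr and Prlr, the transcription factor genes Foxa1, Gata3 and Tbx3, the coregulator gene Cited1 and the estrogen target Greb1. The 8 genes were taken by their symbols from a table of 24007 genes, and each symbol matched 1 row. Cells came from adult female FVB/N mice, 10 to 12 weeks old and in estrus, that were wild type (WT) or carried a knockout of Id4 (KO), with glands of 4 to 8 mice pooled per sample. The mice belong to a published Id4 line, and the labels do not say which part of Id4 is missing. Live lineage-negative cells were sorted by flow cytometry into basal cells (CD24+CD29hiCD61+), luminal progenitors (LP, CD24+CD29loCD61+) and mature luminal cells (ML, CD24+CD29loCD61-). Each of the 6 groups held 4 libraries, 24 in all, which the labels give as biological replicates. Libraries are named here by genotype, population and replicate number.

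The mammary duct has an outer basal layer and an inner luminal layer, and only a share of the luminal cells carries receptors for the ovarian steroids. These hormone-sensing cells make estrogen receptor alpha and the progesterone receptor, respond to estrogen and progesterone in the cycle, and pass the signal to their neighbours by secreted factors such as amphiregulin. FOXA1 and GATA3 act beside the estrogen receptor on chromatin, and the prolactin receptor drives growth and milk formation in pregnancy. ID4 is a helix-loop-helix protein without the basic region that contacts DNA, and it keeps its E protein partners from binding E box sequences.

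Library totals ran from 3098433 to 7246445 estimated counts, and 3 counts corresponded to between 0.378 and 0.976 CPM, the unit of every level below (counts relative to a library's effective size, from a trimmed mean of M-values scaling of all libraries). The 15 basal markers summed to between 9862 and 17230 CPM in the basal libraries and to at most 299 CPM in the luminal ones. The 15 LP markers summed to between 10650 and 32270 CPM in LP libraries, to at most 2487 CPM in ML libraries and to between 496 and 2457 CPM in 7 of the 8 basal libraries. The exception was WT basal 2, with 8457 CPM, and each call on WT basal cells is therefore also given without it where it differs. Id4 itself was a basal transcript, at 42.2 ± 31.3 CPM in WT basal cells (SD, n = 4) and 5.86 ± 5.58 CPM in KO basal cells. The lowest WT basal library held 13.2 CPM and the highest KO basal library 11.1 CPM, so the groups did not overlap. In edgeR's quasi-likelihood test the Id4 difference was -2.80 on the log2 scale (SE 0.87), with an adjusted p of 0.998. In the luminal libraries Id4 had at most 7 counts, so no knockout check was possible there.

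In WT cells the receptors, FOXA1, TBX3 and CITED1 transcripts marked the ML population. Of the 7 members that passed the expression filter, 7 were lower in basal than in ML cells and 6 were lower in LP than in ML cells. Over all genes tested, 10.6% were called lower in basal than in ML cells and 4.89% lower in LP than in ML cells. Both comparisons use the same 4 ML libraries. The members' median log2 difference was -3.63 for basal against ML and -3.77 for LP against ML, where the medians of all genes tested were 0.01 and -0.01. Between basal cells and LP, 1 member was called, Tbx3, among 15.8% of all genes. In bulk RNA, fewer cells of a type and less RNA per cell cannot be told apart, which holds for every low level reported here.

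Esr1 encodes estrogen receptor alpha, a nuclear receptor (ENSMUSG00000019768, mm10 chromosome 10, 4611593 to 5005614, plus strand). In WT ML cells it was at 338, 173, 215 and 185 CPM in replicates 1 to 4. WT LP held 38.0, 20.0, 30.4 and 18.0 CPM, and WT basal cells 16.2, 40.1, 32.9 and 12.9 CPM. All ML libraries lay above all others, while the LP and basal libraries overlapped. The LP level was 11.7% of the ML level (log2 difference -3.09, SE 0.39, edgeR adjusted p = 9.66e-05), and the basal level was 11.2% of it (-3.14, SE 0.39, adjusted p = 2.89e-05). Basal cells and LP differed by -0.04 (SE 0.37, 95% interval -0.83 to 0.74).

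Pgr encodes the progesterone receptor, itself an estrogen target (ENSMUSG00000031870, chromosome 9, 8899833 to 8968611, plus strand). WT ML libraries held 413, 289, 365 and 567 CPM. WT LP libraries held 17.8, 14.8, 12.8 and 47.0 CPM, and WT basal libraries 35.4, 20.6, 49.5 and 24.9 CPM. LP replicate 4 stood apart from its 3 companions, and no LP or basal library came near the ML range. The ML mean was 17.7 times that of LP and 12.5 times that of basal cells (log2 differences -4.13, SE 0.43, and -3.63, SE 0.42). Basal against LP did not pass (0.50, SE 0.39, edgeR adjusted p = 0.451), and it did without WT LP 4 (1.10, adjusted p = 0.0349).

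Prlr encodes the prolactin receptor, a cytokine receptor at the cell surface (ENSMUSG00000005268, chromosome 15, 10177238 to 10349180, plus strand). WT ML libraries held 6172, 5363, 7254 and 6317 CPM, with the smallest relative spread of the members in WT ML cells, a coefficient of variation of 12.3%. WT LP libraries held 452, 524, 427 and 611 CPM, and WT basal libraries 159, 447, 325 and 144 CPM. The 3 populations were graded, with LP at 8.02% and basal cells at 4.28% of the ML mean, although 1 basal library fell inside the LP range. That library is WT basal 2, the one rich in LP markers. The basal against LP difference was -0.88 (SE 0.31, edgeR adjusted p = 0.0704). Without WT basal 2 it was -1.27, which passed (adjusted p = 0.00354).

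Foxa1 encodes a forkhead pioneer factor that opens chromatin for the estrogen receptor (ENSMUSG00000035451, chromosome 12, 57540628 to 57546916, minus strand). Its level was 202, 196, 155 and 136 CPM in WT ML cells. WT LP libraries held 9.70, 19.4, 3.13 and 18.0 CPM, and WT basal libraries 6.96, 17.3, 9.35 and 2.98 CPM. The ML libraries were far above the rest, and LP and basal libraries overlapped throughout. Their lowest values rest on 13 counts in LP and 18 counts in basal cells. ML stood 13.7-fold above LP and 18.9-fold above basal cells (log2 differences -3.77, SE 0.53, and -4.22, SE 0.55).

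Gata3 encodes a zinc finger factor needed for luminal fate (ENSMUSG00000015619, chromosome 2, 9857078 to 9890034, minus strand). It was the exception among the factors, with a shallow gradient and a divided ML group. WT ML libraries held 280, 211, 73.4 and 75.6 CPM, WT LP libraries 79.2, 95.2, 58.1 and 74.8 CPM, and WT basal libraries 80.0, 68.9, 57.0 and 47.9 CPM. ML replicates 1 and 2 were above every LP and basal library, whereas ML replicates 3 and 4 lay within the LP range. LP held 48.0% of the ML mean, a log2 difference of -1.06 (SE 0.38, edgeR adjusted p = 0.0892). That comparison passed without WT ML 3 (-1.31, adjusted p = 0.0319) or without WT ML 4 (-1.33, adjusted p = 0.0347). The basal against ML call (-1.32, SE 0.38, adjusted p = 0.0198) was lost without WT basal 4 (adjusted p = 0.0581), WT ML 1 (0.0880) or WT ML 2 (0.0600). Antisense and neighbouring gene models overlap Gata3 and together hold few counts, 195 for 4930412O13Rik and 102 for 9230102O04Rik against 13109 for Gata3, and the labels and notes do not say whether counting used strand.

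Tbx3 encodes a T-box repressor that the embryo needs to form mammary buds (ENSMUSG00000018604, chromosome 5, 119670669 to 119684724, plus strand). WT ML libraries held 232, 155, 136 and 112 CPM, and WT LP libraries 8.57, 9.89, 4.82 and 16.1 CPM. WT basal libraries held 36.8, 26.1, 31.4 and 41.8 CPM. All 3 populations were separated, with basal cells between ML and LP, an order that no other member had in WT cells with separated libraries. Tbx3 was 3.46-fold higher in basal cells than in LP (log2 difference 1.79, SE 0.34, edgeR adjusted p = 0.00178), where 9.12% of all genes were called higher. LP held 6.21% and basal cells 21.4% of the ML mean.

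Cited1 encodes a coactivator that binds the estrogen receptor and CBP/p300 (ENSMUSG00000051159, chromosome X, 102247381 to 102252181, minus strand). Its level was 377, 310, 108 and 111 CPM in WT ML cells, and WT LP libraries held 14.7, 19.4, 3.61 and 10.4 CPM. WT basal libraries held 19.1, 15.7, 4.53 and 0.994 CPM, the last of them 6 counts. ML was separated from the rest, and within each population replicates 1 and 2 held more than replicates 3 and 4. The ML mean was 18.8 times the LP mean and 22.4 times the basal mean (log2 differences -4.22, SE 0.73, and -4.45, SE 0.74, edgeR adjusted p = 0.00115 and 3.62e-04).

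Greb1, a cofactor and early target of the estrogen receptor (ENSMUSG00000036523, chromosome 12, 16670615 to 16800886, minus strand), was at or near the detection limit. Over all 24 libraries it had 91 counts. WT ML libraries held 5, 8, 1 and 9 counts, and KO ML libraries 0, 2, 3 and 0. All 4 WT basal libraries, 3 WT LP libraries and 3 KO LP libraries were at 0, with 1 count in WT LP 4 and 2 counts in KO LP 4. The highest values were 13 counts in KO basal 1 and 47 counts in KO basal 2, while KO basal 3 and 4 were at 0. Greb1 did not pass the filter in any of the 12 comparisons and was not tested.

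**Figure D1:**
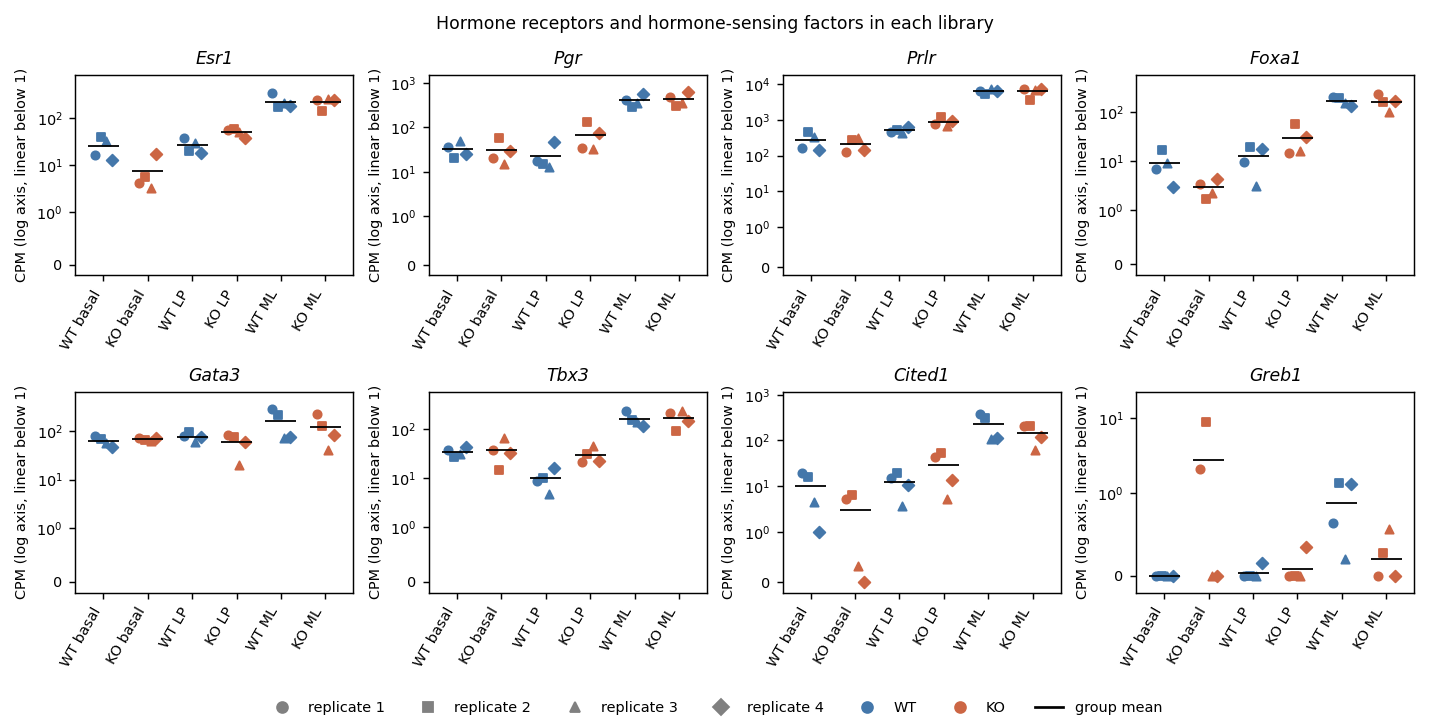
Level of each of the 8 genes in each of the 24 libraries, in CPM on a log axis that is linear below 1, with 1 symbol per replicate number, blue for WT, orange for KO and a black line at the group mean. Esr1, Pgr, Prlr, Foxa1, Tbx3 and Cited1 stand highest in ML libraries of both genotypes with no overlap with the other populations, Gata3 has a shallower gradient with overlapping libraries, and Greb1 is near 0 in most libraries.

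Set on a scale per length (CPM per kilobase of the deposited gene length), Prlr was the most abundant member in every group, at 953 ± 118 in WT ML cells (SD, n = 4). Cited1 came next there at 248 ± 151, then Pgr at 90.5 ± 26.0, Esr1 at 71.1 ± 23.6, Gata3 at 58.9 ± 37.8, Foxa1 at 54.1 ± 9.98, Tbx3 at 33.0 ± 10.7 and Greb1 at 0.323 ± 0.207. Only Prlr at the top and Greb1 at the bottom were separated from their neighbours in that order, and the others overlapped. In WT LP, Prlr at 76.4 ± 12.6 and Gata3 at 28.3 ± 5.63 led, both separated from the next gene, and Tbx3 was the lowest detected factor at 2.05 ± 0.98. In WT basal cells the same 2 genes led, at 40.8 ± 21.9 and 23.4 ± 5.16, with overlapping libraries.

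Promoter sequence was read for 3 members with a single start in the RefSeq promoter table (GRCm38.p6, the same build), to set Gata3, with its shallow gradient, beside Pgr and Foxa1, which had steep ones. Each line gives the 250 bases before the start, 5′ to 3′ on the gene's strand, and capitals mark CANNTG, the E box letters, which read the same on both strands.
Pgr, chr9:8899583-8899832, plus strand: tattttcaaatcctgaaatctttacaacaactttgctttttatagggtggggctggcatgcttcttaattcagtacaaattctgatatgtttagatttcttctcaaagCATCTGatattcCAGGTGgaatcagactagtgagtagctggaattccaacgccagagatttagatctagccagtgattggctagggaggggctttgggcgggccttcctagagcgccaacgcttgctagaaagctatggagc
Foxa1, chr12:57546112-57546361, minus strand: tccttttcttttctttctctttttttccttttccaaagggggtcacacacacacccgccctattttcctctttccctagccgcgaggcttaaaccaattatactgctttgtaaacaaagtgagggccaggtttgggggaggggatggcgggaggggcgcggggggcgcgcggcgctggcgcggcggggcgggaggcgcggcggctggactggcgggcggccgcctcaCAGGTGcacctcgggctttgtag
Gata3, chr2:9878601-9878850, minus strand: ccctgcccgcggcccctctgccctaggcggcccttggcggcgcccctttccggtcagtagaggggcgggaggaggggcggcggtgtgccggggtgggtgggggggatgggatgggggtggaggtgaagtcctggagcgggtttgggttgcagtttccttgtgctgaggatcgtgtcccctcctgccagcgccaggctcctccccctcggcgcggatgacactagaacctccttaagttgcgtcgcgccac
The Pgr window held 2 matches, the Foxa1 window 1 and the Gata3 window 0. Windows of 2 members with steep gradients, Prlr (chr15:10293401-10293650) and Cited1 (chrX:102252182-102252431), also held 0, although other windows of these genes held matches. A relation between matches and gradient was not tested. Of 32536 distinct promoters of that length 66.2% held at least 1 match, and of the 13 promoters found for 7 members 10 did. The letters GGTCA, to which nuclear receptors bind in pairs, were searched on both strands and were in 6 of the 13 and in 35.3% of all promoters. The forkhead letters TGTTTAC, also on both strands, were in 2 of the 13, 1 of them the Foxa1 window itself, and in 3.17% of all promoters. The RefSeq starts used for Foxa1 and Gata3 lie inside the span that the GENCODE annotation gives these genes.

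In KO cells the ML population again stood above the others for most members. The 6 members called lower in basal than in ML cells (7.51% of all genes) were those other than Gata3. For LP against ML, 5 were called lower (1.59% of all genes), namely Esr1, Pgr, Prlr, Foxa1 and Tbx3. Cited1 had a log2 difference of -2.35 (SE 0.78, edgeR adjusted p = 0.101), which did not pass. KO basal cells were lower than KO LP in 4 members (6.69% of all genes). These were Esr1 (log2 -2.69, SE 0.44), Prlr (-2.01, SE 0.34), Foxa1 (-3.30, SE 0.48) and Cited1 (-3.15, SE 0.85). Cited1 did not pass without the expression filter (adjusted p = 0.104), and Pgr passed without KO basal 2 (-1.67, adjusted p = 0.0224). In the fit of all WT libraries none of these 4 genes was called between basal cells and LP.

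As a share of the ML mean, the LP level of Esr1 was 11.7% in WT and 23.3% in KO cells. For Pgr the shares were 5.65% and 15.5%, for Prlr 8.02% and 14.2%, and for Foxa1 7.29% and 18.0%. For Tbx3 they were 6.21% and 17.3%, and for Cited1 5.32% and 19.3%. Gata3 was at 48.0% and 50.0%. The basal share of Esr1 was 11.2% in WT and 3.48% in KO cells, and that of Foxa1 5.30% and 1.74%. These shares divide group means. A change in an LP share corresponds to the KO effect in LP minus that in ML, which passed for no member after adjustment and is given with the fit of all libraries.

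The LP libraries of the 2 genotypes were then compared directly, to see which members differed in that population where Id4 was knocked out. Of the 7 tested members 6 had higher fitted values in KO than in WT LP, with a median log2 difference of 1.24 against 0.00 for all genes tested. No member passed in edgeR's quasi-likelihood test after adjustment over 11700 genes, where 0% of all genes passed, and each had an adjusted p of 0.999. That fit does not pair the libraries. With replicate number added to the edgeR fit as a block, 0 members passed as well. Their adjusted p was then 0.237 for Prlr, 0.371 for Esr1 and Pgr, 0.431 for Tbx3 and 0.452 for Foxa1. It was 0.512 for Cited1 and 0.723 for Gata3. DESeq2 and limma's voom also called 0 members. At an unadjusted p under 0.05 edgeR had 5 of the 7, all higher in KO, where 2.48% of all genes were higher and 3.75% differed either way.

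Among the receptors, Esr1 stood at 55.2, 60.3, 51.8 and 38.6 CPM in KO LP replicates 1 to 4, against the WT values of 18.0 to 38.0 CPM. No KO library overlapped the WT range, the closest being KO LP 4 and WT LP 1. The log2 difference was 0.95 (SE 0.29, 95% interval 0.33 to 1.58, rank 49 by edgeR p among 11700 genes). Pgr stood at 33.5, 133, 33.1 and 76.9 CPM in KO LP, against 12.8 to 47.0 CPM in WT LP. KO replicates 1 and 3 lay below WT LP 4, so these groups overlapped. The Pgr difference was 1.57 (SE 0.51, interval 0.47 to 2.68, rank 78). It was 1.03 without KO LP 2 and 2.19 without WT LP 4, the library that stood apart. Prlr stood at 750, 1203, 677 and 916 CPM in KO LP, against 427 to 611 CPM in WT LP, with no overlap. Its difference was 0.82 (SE 0.23, interval 0.32 to 1.32, rank 26).

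Among the factors, Foxa1 stood at 15.1, 57.6, 16.3 and 30.7 CPM in KO LP, against 3.13 to 19.4 CPM in WT LP. KO replicates 1 and 3 lay below WT LP 2 and 4. The log2 difference was 1.25 (SE 0.54, 95% interval 0.09 to 2.41, rank 316), and 0.71 without KO LP 2. Tbx3 stood at 20.9, 30.6, 44.0 and 22.0 CPM in KO LP, against 4.82 to 16.1 CPM in WT LP, and the groups did not overlap. Its difference was 1.57 (SE 0.40, interval 0.70 to 2.44, rank 14). Gata3 went the other way, at 84.6, 74.6, 20.1 and 59.4 CPM in KO LP against 58.1 to 95.2 CPM in WT LP (-0.37, SE 0.35, interval -1.12 to 0.39).

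The coregulator gene Cited1 stood at 43.1, 52.5, 5.21 and 13.7 CPM in KO LP, against 14.7, 19.4, 3.61 and 10.4 CPM in WT LP. Both genotypes were high in replicates 1 and 2 and low in replicates 3 and 4, so the groups overlapped although KO was higher at every number. The log2 difference was 1.24 (SE 0.63, 95% interval -0.11 to 2.60). Greb1 had 2 counts in KO LP and 1 count in WT LP in all, which allows no comparison.

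Counted by replicate number, KO LP was above WT LP in 4 of 4 pairs for Esr1, Pgr, Prlr, Foxa1, Tbx3 and Cited1, and in 1 of 4 for Gata3. Of all genes tested 8.15% were higher in KO in all 4 pairs. The pair ratios of Prlr were the tightest, 1.50 to 2.30, and those of Tbx3 (1.36 to 9.14) and Pgr (1.64 to 8.98) the widest. The members whose KO and WT libraries did not overlap were Esr1, Prlr and Tbx3, all higher in KO, where 1.5% of all genes were separated in that direction. KO LP 2 was the highest of the 8 LP libraries for 5 of the 7 members. Without it the log2 differences were 0.86 for Esr1, 0.62 for Prlr, 1.55 for Tbx3 and 0.77 for Cited1. Mitochondrial ribosomal RNA made up 35.1% of KO LP 2, the highest share of any library. In pair 3 that share was 26.9% in WT LP 3 and 13.6% in KO LP 3. The part of this RNA in the members' values was not tested.

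**Figure D2:**
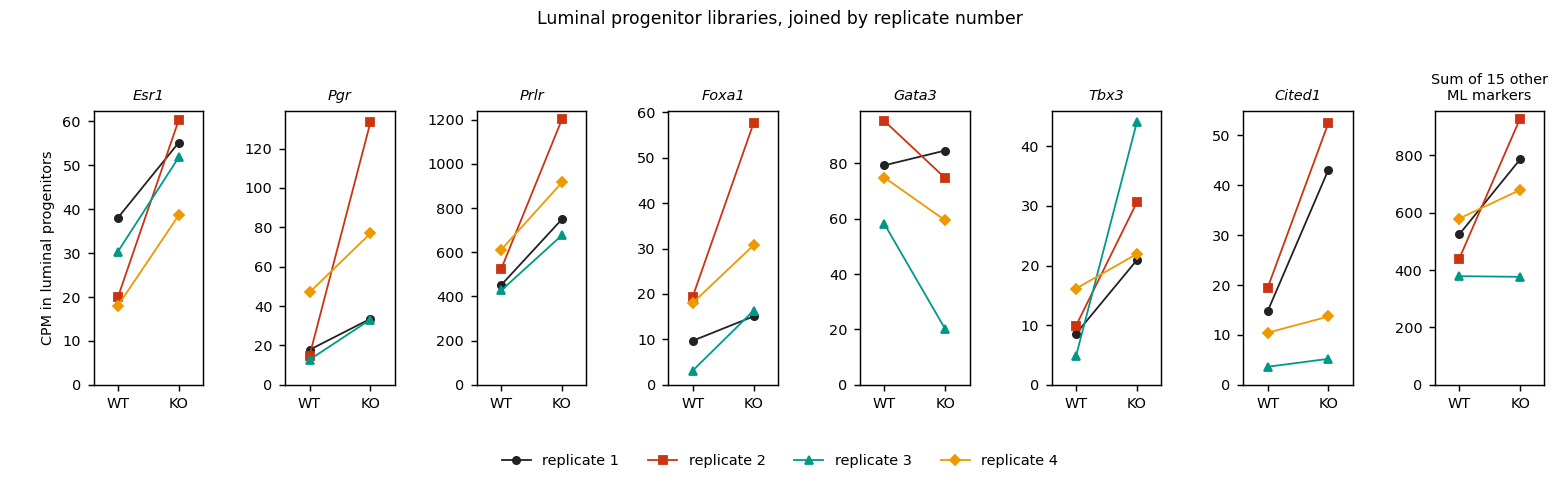
CPM of 7 genes and summed CPM of 15 further genes listed as ML markers in the 8 luminal progenitor libraries, with WT and KO libraries of the same replicate number joined. Lines climb in all 4 pairs for 6 genes, Gata3 is lower in KO in 3 of 4 pairs, and the marker sum is level in replicate 3 (379 and 377 CPM). The sum includes Kcnk1 and Tspan8, which were not highest in WT ML cells.

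Markers of ML cells that are not members were also higher in KO LP in 3 of the 4 pairs. The 15 markers summed to 525, 440, 379 and 580 CPM in WT LP and to 786, 929, 377 and 680 CPM in KO LP, against 1363 to 3535 CPM in the ML libraries. KO was higher in 10, 12, 8 and 12 of the 15 in pairs 1 to 4. Of the 12 markers tested in LP, 10 had higher fitted values in KO (median log2 difference 1.04) and 0 were called by edgeR. Areg, which encodes amphiregulin, the estrogen-induced growth factor, stood at 78.0 ± 34.4 CPM in WT LP and 162 ± 113 CPM in KO LP. The marker genes Tnfsf11 and Spdef were at 0 in several LP libraries of both genotypes. Kcnk1 and Tspan8 of the list were not highest in ML cells in WT, and they made up a large part of the LP sums. Kcnk1 had means of 120 CPM in WT LP, 86.2 CPM in KO LP and 96.4 CPM in WT ML cells. Those of Tspan8 were 89.1, 77.5 and 10.3 CPM. In pair 3 the marker sums, which include Kcnk1 and Tspan8, were level. The KO to WT ratios of the members in that pair were 9.14 for Tbx3, 5.22 for Foxa1, 2.60 for Pgr and 1.71 for Esr1. They were 1.59 for Prlr, 1.44 for Cited1 and 0.347 for Gata3. The WT library of that pair, WT LP 3, was the lowest LP library for 5 of these 7. The 10 fibroblast markers summed to 165 to 706 CPM in WT LP and 221 to 962 CPM in KO LP. Of the 9 tested, 9 had fitted values above 0 in KO LP (median log2 difference 0.67), and KO was higher in 10, 8, 9 and 1 of the 10 in pairs 1 to 4. Pan-luminal markers had fitted values above 0 in 6 of 8 (median 0.46), and LP markers in 4 of 15 (median -0.25). None of these markers was called by edgeR, and the part of the marker lists in the members' values was not tested.

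Within replicates 1 and 2 alone, the edgeR log2 differences between KO and WT LP were 1.01 for Esr1, 2.37 for Pgr, 1.02 for Prlr, 1.35 for Foxa1, 1.50 for Tbx3 and 1.51 for Cited1. Within replicates 3 and 4 they were 0.89, 0.85, 0.60, 1.11, 1.61 and 0.39 in the same order. Each of these fits holds 2 libraries per genotype, and no member passed in either.

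In basal cells, where Id4 was expressed, 2 of 7 members had fitted values above 0 in KO, with a median log2 difference of -0.35 against 0.01 for all genes. No member passed (0% of all genes), DESeq2 and voom called 0, and at an unadjusted p under 0.05 edgeR had 1, Esr1, where 1.51% of all genes were lower. Esr1 stood at 4.19, 5.65, 3.25 and 17.7 CPM in KO basal cells against 16.2, 40.1, 32.9 and 12.9 CPM in WT. KO replicates 1 to 3 lay below every WT library, and KO basal 4 was inside the WT range. The log2 difference was -1.74 (SE 0.78, 95% interval -3.40 to -0.09, edgeR adjusted p = 0.998). Without KO basal 4 the value was -2.54, and fits of replicates 1 and 2 or of 3 and 4 alone gave -2.55 and -1.09.

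Foxa1 stood at 3.38, 1.70, 2.28 and 4.24 CPM in KO basal cells, from 7 to 21 counts, against 2.98 to 17.3 CPM in WT (-1.68, SE 1.00). Cited1 stood at 5.16, 6.22, 0.33 and 0 CPM against 0.994 to 19.1 CPM (-1.79, SE 1.32). These ranges overlapped. With voom the difference of Foxa1 was -0.79 and that of Cited1 -0.38. Prlr differed by -0.35 (SE 0.42), Pgr by -0.04 (SE 0.55), Gata3 by 0.10 (SE 0.35) and Tbx3 by 0.18 (SE 0.51). LP and pan-luminal markers had mostly lower fitted values in KO basal cells, as Esr1, Foxa1 and Cited1 did, while ML markers were divided. Of the 13 LP markers tested in basal cells, 0 had a fitted value above 0 in KO, with a median log2 difference of -1.44, and of 8 pan-luminal markers 1 did (median -0.46), while none was called by edgeR. These fits include WT basal 2, and the markers were not fitted without it. The LP marker sum was 717, 8457, 1066 and 963 CPM in WT basal replicates 1 to 4, with a median of 1014 CPM. In KO basal replicates 1 to 4 it was 717, 2457, 496 and 922 CPM, with a median of 820 CPM. Apart from WT basal 2 and KO basal 2, the sums of the 2 genotypes overlapped. Of 10 ML markers tested in basal cells, none of them a member, 4 had fitted values above 0 in KO (median log2 difference -0.148). The sum of all 15 ML markers had a median of 282.6 CPM in WT and of 362.2 CPM in KO basal cells. KO was higher in 10, 11, 6 and 6 of the 15 in pairs 1 to 4. That sum includes Kcnk1, with means of 32.8 CPM in WT and 72.5 CPM in KO basal cells. In the same order the means of Cd200 were 65.9 and 104 CPM, of Ly6a 5.24 and 16.9 CPM and of S100a6 26.8 and 36.4 CPM. Other markers were lower in KO, among them Prom1 (13.8 and 6.24 CPM), Wnt4 (8.06 and 3.98 CPM) and Areg (38.3 and 33.5 CPM). Without WT basal 2, the library rich in LP markers, the log2 difference was -1.38 for Esr1, -1.10 for Foxa1 and -1.43 for Cited1, and that of Prlr turned to 0.07. The part of the luminal markers in these values was not tested.

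In ML cells the fitted KO differences of most members were near 0, and 0 members had an unadjusted p under 0.05 in edgeR, against 3.87% of all genes. Of all genes 0.00851% were called, and DESeq2 and voom called 0 members. The log2 difference was -0.04 for Esr1 (95% interval -0.59 to 0.52), 0.14 for Pgr (-0.43 to 0.70), 0.00 for Prlr (-0.56 to 0.56), -0.04 for Foxa1 (-0.58 to 0.49) and 0.11 for Tbx3 (-0.55 to 0.77). For these 5 genes the intervals lie within 1 log2 unit of 0. Gata3 (-0.42, interval -1.67 to 0.83) and Cited1 (-0.61, -1.68 to 0.47) had wider ones. Prlr stood at 6990, 3515, 6963 and 7436 CPM in KO ML cells, with KO ML 2 the lowest of all 8 ML libraries.

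A fit of all 24 libraries was used to test whether KO differences varied from one population to another. For basal minus LP, 6 of 7 members had an unadjusted edgeR p under 0.05, all below 0, where 4.24% of all genes did so in that direction, and 0 passed after adjustment (0% of all genes). Esr1 had the smallest p of the members, with a log2 value of -2.67 (SE 0.59, 95% interval -3.88 to -1.47, edgeR adjusted p = 0.258), rank 5 of 14082 genes, followed by Foxa1 (-2.88, SE 0.72, adjusted p = 0.392), rank 14. DESeq2 called both (adjusted p = 0.0166 and 0.0457), and edgeR called Esr1 without KO basal 4 (-3.48, adjusted p = 0.00716). KO basal 4 is the KO basal library that lay inside the WT range of Esr1. Over all genes the count called here, 0 in the main fit, reached 13 with single libraries left out and 44 under other alternatives. For LP minus ML all 7 members were above 0, with 2 at an unadjusted p under 0.05 (0.795% of all genes in that direction) and 0 called by edgeR or DESeq2. Tbx3 had 1.46 there (SE 0.55) and Pgr 1.45 (SE 0.64). For basal minus ML, 0 were called by either tool and 2 had an unadjusted p under 0.05 (4.3% of all genes were lower by that measure), Esr1 (-1.68, SE 0.58) and Foxa1 (-1.59, SE 0.70).

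**Figure D3:**
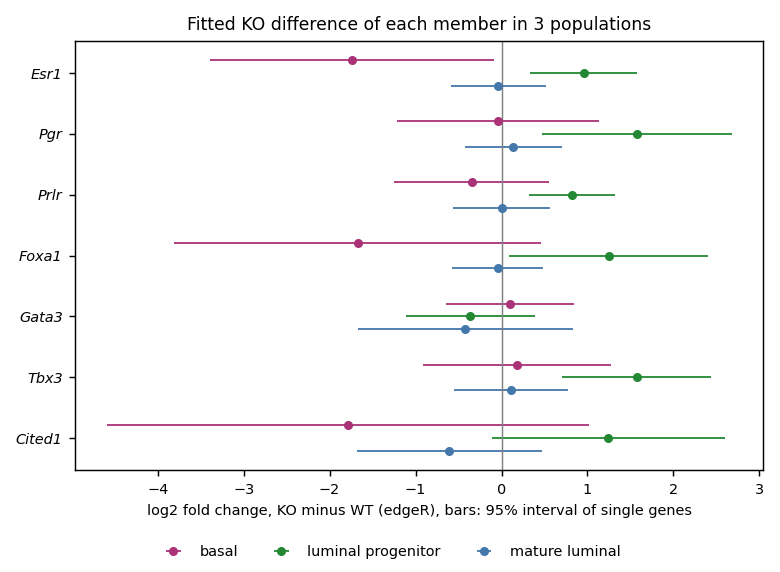
Fitted log2 difference between KO and WT for 7 genes in basal (purple), luminal progenitor (green) and mature luminal (blue) cells, with 95% intervals of single genes from edgeR. The luminal progenitor points lie above 0 for 6 genes, the basal points of Esr1, Foxa1 and Cited1 lie below 0 with wide intervals, and most mature luminal points lie near 0.

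Cited1 and Gata3 differed by replicate number. Cited1 was higher in replicates 1 and 2 than in replicates 3 and 4 in 6 of 6 groups, without overlap, and Gata3 in 5 of 6. Of 14082 genes 0.234% were so separated in all 6 groups and 1.96% in at least 5. The ratio of the mean of replicates 1 and 2 to that of replicates 3 and 4 was 3.14 for Cited1 in WT ML cells and 5.06 in KO LP. For Gata3 it was 3.29 in WT ML cells, 2.81 in KO ML cells and 1.02 in KO basal cells, the group that did not separate. Esr1, Foxa1 and Tbx3 were separated in that direction in 1 of 6 groups each, and Pgr and Prlr in 0. The labels name no batch for these numbers.

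**Figure D4:**
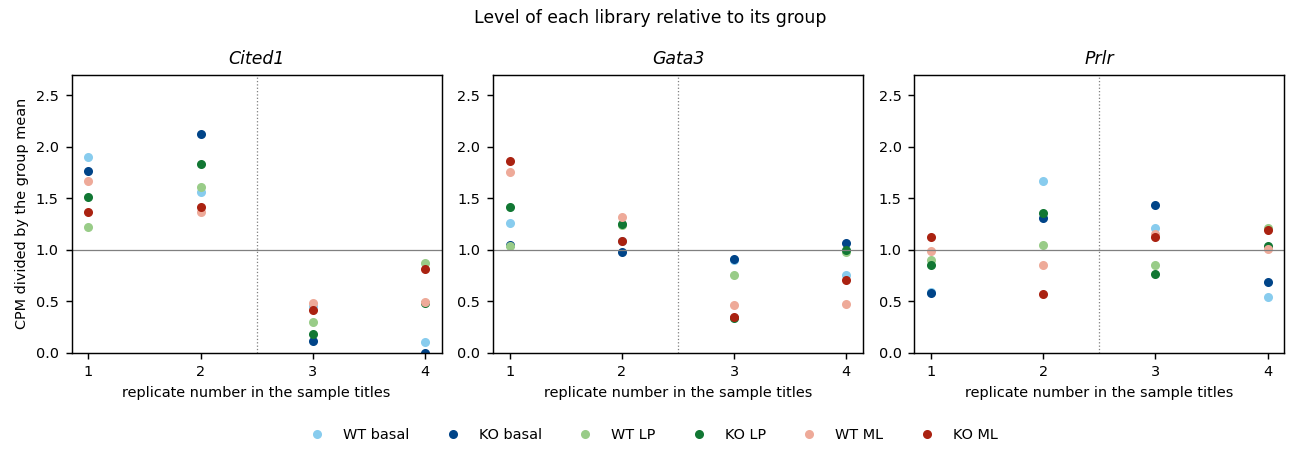
CPM of each library divided by its group's mean, by replicate number, for Cited1, Gata3 and, for contrast, Prlr, with 1 colour per group. For Cited1 all replicates 1 and 2 lie above 1 and all replicates 3 and 4 below it, Gata3 shows the same in 5 of 6 groups, and Prlr does not.

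Of 24 further hormone receptor genes 18 passed the filter in the WT fit. In LP against ML, 6 were higher in LP and 1 lower, where 6.62% of all genes were called higher and 4.89% lower. In basal against ML, 6 were higher in basal cells and 0 lower, where 14% of all genes were called higher and 10.6% lower. Oxtr, the oxytocin receptor of contractile cells, had a WT mean of 838 ± 411 CPM in basal cells, of 62.3 ± 20.5 CPM in LP and of 20.6 ± 8.82 CPM in ML cells (basal against ML log2 5.37, SE 0.45, edgeR adjusted p = 8.53e-07). Vdr, the vitamin D receptor, had means of 173 ± 52.2 CPM in LP and of 48.6 ± 13.1 CPM in ML cells (log2 1.84, SE 0.28, adjusted p = 4.87e-04). Igf1r, the receptor of insulin-like growth factor, was also higher in LP than in ML cells (log2 2.83, SE 0.42, adjusted p = 3.74e-04). Between KO and WT, 0 receptors of this list were called in any population, and in LP 9 of 18 had fitted values above 0, with a median of 0.00.

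Known estrogen and progesterone response genes were divided between the populations. Of 17 tested in WT, 7 were lower and 4 higher in LP than in ML cells, where 4.89% of all genes were called lower and 6.62% higher. Areg was 38.3 ± 12.7 CPM in WT basal cells and 1121 ± 496 CPM in ML cells (log2 -4.85, SE 0.40, edgeR adjusted p = 8.51e-07). Igfbp5, a binding protein of insulin-like growth factors, went the other way, at 6178 ± 1501 CPM in WT LP and 438 ± 143 CPM in ML cells (log2 3.83, SE 0.30, adjusted p = 5.62e-06). Bcl2, an inhibitor of apoptosis, had means of 204 ± 58.9 CPM in WT LP and of 13.5 ± 1.75 CPM in ML cells. Between KO and WT LP, 0 of 14 were called and 8 had fitted values above 0, with a median log2 difference of 0.25.

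For 6 members, the genes whose profile over the 24 libraries was most like the member's were found by the root mean square difference of log2(CPM + 0.5) values, each profile centred on its own mean. For Prlr these were Tmem56 (0.48), Pls1 (0.54) and Tmprss2 (0.57), where Prlr itself varied with an SD of 2.06 (log2). For Esr1 they were Podxl (0.73), Tmprss2 (0.74) and Prlr (0.81), and for Pgr Slc7a2 (0.63), Ptn (0.66) and Nek7 (0.71). For Foxa1 they were Gipc2 (0.70), Prlr (0.72) and Fer1l4 (0.73), for Tbx3 Fgfr2 (0.62), Fam43a (0.69) and Lpin2 (0.70), and for Cited1 Gdpd1 (0.83), Cdo1 (0.94) and Gipc2 (1.04). Foxa1 had another member, Prlr, among its 3 nearest genes with 0.5 or 2 added to the CPM. Esr1 had Prlr there with 0.5 but not with 2, and with 2 the third gene of Cited1 was Foxa1. Greb1 was not compared.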

How the data were processed

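RNA of 24 sorted samples, 0.5 to 2 ng each, was amplified into cDNA, per the labels' protocols (NuGEN Ovation). The authors deposited 1 table of estimated counts per gene, made with cutadapt, STAR and RSEM on mm10 per the submitters' processing notes and not normalized, with gene lengths per the file headers. Tool versions and roles are not given in the sources here. Amplified molecules carry no identifiers, so limits from counts cover counting error only. Mitochondrial ribosomal RNA made up 13.5% to 35.1% of a library. Libraries of a group differed by more than counting noise (lowest chi-square per degree of freedom 20.8).

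Expected counts were rounded and tested in R 4.3.3 with edgeR 4.0.16 (quasi-likelihood F-test, two-sided, trimmed mean of M-values scaling, default expression filter, robust dispersion, Benjamini-Hochberg adjustment over all genes tested, threshold 0.05). KO was compared with WT on the 8 libraries of a population, populations on the 12 libraries of a genotype, and differences of KO effects on all 24. The 95% intervals are those of single genes. Levels are CPM on a scaling of all 24 libraries. Alternatives were DESeq2 1.42.0, voom with sample weights (limma 3.58.1), another scaling, no filter, a replicate block, a fit of all libraries, replicates 1 and 2 or 3 and 4 alone, and each library left out. The scripts were tested on simulated data. Replicate numbers come from the sample titles, and the replicate tags of the KO ML samples differ from them. Deviations of same-numbered KO and WT libraries correlated at 0.118 to 0.356 in LP and 0.122 to 0.332 in ML, so the numbers pair these samples. The main fits, and the SEs, intervals and ranks given with them, do not use this pairing, whereas the replicate block does. In basal cells they correlated at 0.0572 to 0.14, which was not over 0.1 for every pair. The best match of a library in the other genotype nonetheless bore its own number in 8 of 8 cases in basal cells. It did so in 6 of 8 cases in LP and in 7 of 8 in ML cells. Gene positions are from the GENCODE annotation, which held 23758 of 24007 identifiers, and promoters from RefSeq, with 7 of the 8 members in its table. The 8 members, the gene lists and the marker lists were chosen with earlier results of these data known. Named genes are the 8 members, Id4, up to 2 tested genes per list and comparison with the smallest p, and 3 nearest genes per member. Single ML markers are named as well. The genes with profiles nearest to Gata3, and some single genes of the lists, are not reported here.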

Additional observations from a re-analysis of the deposited data

Results flagged for a closer look

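Of 47 combinations of a member and a group, 6 held 1 library far from its 3 companions, by a gap criterion that flags about 1 in 20 by chance. Esr1 stood at 17.7 CPM in KO basal 4, against 3.25 to 5.65 CPM in the other KO basal libraries. Esr1 stood at 142 CPM in KO ML 2, the lowest of its group, where the others held 241 to 258 CPM. Prlr was lowest in the same library, at 3515 CPM against 6963 to 7436 CPM. Pgr stood at 47.0 CPM in WT LP 4, against 12.8 to 17.8 CPM. Greb1 stood at 0.158 CPM in WT LP 4 and at 0.351 CPM in KO LP 4, which are 1 and 2 counts beside libraries at 0.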

How the results depend on the processing

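No member changed direction where it was called, under any alternative run. The count of members called between WT basal cells and LP was 1 and became 2 without the expression filter and with the replicate block, and ran from 1 to 2 with single libraries left out, with Prlr or Pgr added. The count for the KO effect in basal cells minus that in LP was 0, became 2 with DESeq2 and ran from 0 to 1 with single libraries left out. For the same difference the count over all genes was 0, and reached 13 with single libraries left out and 44 under other alternatives. With the replicate block Prlr passed between WT basal cells and LP (-0.98, adjusted p = 0.0397) and Cited1 between KO LP and ML (-2.76, adjusted p = 0.00401), so the latter count went from 5 to 6. Between populations, same-numbered libraries correlated at -0.00235 to 0.303, so not every pair was over 0.1. A library's best match in another population bore its own number in 7 of 8 cases for each pair of WT populations. In KO it did so in 5 of 8 cases for basal cells with LP or ML cells, and in 6 of 8 for LP with ML cells. The block changed no other member call. In KO against WT, 0 members were called in any population under any alternative, while the count over all genes reached 30 in basal cells, 4 in LP and 11 in ML cells. The LP differences ran over the alternatives from 0.81 to 1.18 for Esr1, 0.85 to 2.37 for Pgr, 0.60 to 1.02 for Prlr, 0.71 to 1.52 for Foxa1, 1.30 to 1.92 for Tbx3 and 0.39 to 1.60 for Cited1. In basal cells they ran from -2.55 to -1.09 for Esr1, -2.30 to -0.79 for Foxa1 and -2.48 to -0.38 for Cited1, and on both sides of 0 for Pgr, Prlr, Gata3 and Tbx3. The causes of these changes were not tested. Low counts limit what can be read for Greb1, which held at most 47 counts in a library, and for Foxa1 and Cited1 in several basal libraries.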

Other observations

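Further groups of genes that work with the members were read in the same fits. Of 23 steroid receptor coregulators, all of which passed the filter, 1 was higher in WT LP than in ML cells and 0 lower. Of all genes tested 6.62% were called higher and 4.89% lower in that comparison. In WT basal against ML cells 5 were higher and 0 lower, where 14% of all genes were called higher and 10.6% lower. Ncoa1, the steroid receptor coactivator SRC-1, had a WT mean of 197 ± 54.5 CPM in basal cells, of 92.6 ± 13.2 CPM in LP and of 56.5 ± 12.9 CPM in ML cells (SD, n = 4, basal against ML log2 1.82, SE 0.25, edgeR adjusted p = 6.84e-05). In KO cells Nrip1, a corepressor of nuclear receptors, was lower in basal cells than in LP (log2 -1.26, SE 0.32, adjusted p = 0.0137). Between KO and WT LP 0 coregulators were called, with a median log2 difference of 0.05.

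Of 26 partners and relatives of the member factors 15 were tested in WT cells, with 4 higher and 1 lower in LP than in ML cells, against the same 6.62% and 4.89% of all genes. Ehf, an epithelial ETS factor, stood at 372 ± 79.2 CPM in WT LP, 44.9 ± 22.6 CPM in WT basal cells and 75.6 ± 23.8 CPM in WT ML cells. Tfap2c, an AP-2 factor, was higher in WT basal than in ML cells (log2 3.25, SE 0.36, edgeR adjusted p = 9.61e-06). Foxp1, a forkhead relative of Foxa1, stood at 262 ± 37.2 CPM in WT basal cells and 88.6 ± 18.0 CPM in LP (log2 1.58, SE 0.20, adjusted p = 6.04e-05). Between KO and WT LP 0 of 15 were called, and 6 had fitted values above 0. Tfap2b had means of 300.4 ± 92.7 CPM in KO basal cells and of 131 ± 74.5 CPM in WT basal cells (log2 1.25, SE 0.37, edgeR adjusted p = 0.998).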
